A study of Mus musculus with 441 samples.

Results

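The genes for the proteins of the mitochondrial ribosome were followed in mouse embryonic stem cells (mESCs) and in neural precursor cells (NPCs) made from them. Members were the rows named Mrpl or Mrps with a number, which gave 76 genes, 47 of the large (Mrpl) and 29 of the small (Mrps) subunit. All 76 were present in each table, among 21001 gene names in the bulk RNA table, 22392 in the mESC single-cell table, 18873 in the NPC single-cell table and 23142 in the ChIP-seq table. All 76 passed the filter of a mean of 1 TPM, in bulk and on the plates. TPM give a gene's share of the transcripts of a library, corrected for length and scaled to a fixed sum.

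The line was v6.5, an mESC line. NPCs were grown from v6.5 mESCs by selection in ITSFn medium and expansion in N2 medium with bFGF on laminin (54 single cells). The 2i group was v6.5 mESCs in 2i+LIF, a medium with inhibitors of the kinases MEK and GSK3 (94 single cells, 1 bulk library). The Dgcr8KO group was Dgcr8 knockout mESCs made in the v6.5 background and kept in serum+LIF; they lack a protein needed to process microRNAs (84 single cells, 2 bulk libraries). The serum group was v6.5 mESCs in serum+LIF (90 and 93 single cells on 2 plates, 2 bulk libraries). LIF, a cytokine that keeps mESCs pluripotent, was in every mESC medium. ChIP-seq covered RNA polymerase II (RNAP2), H3K4me3, H3K27ac, H3K36me3, H3K27me3, H3K9me3 and whole cell extract, with 1 library for each mESC group. The labels do not say whether replicates came from separate cultures, or how many knockout clones were used, so a p-value here speaks for the spread among these libraries, which may be technical.

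For single cells of 2i, of Dgcr8KO and of NPCs the labels give well positions and no plate. Each of these groups was treated as 1 plate, so plate and group cannot be told apart. Dgcr8 itself had 4.66 TPM in the 2i bulk library, 4.03 and 2.20 TPM in the Dgcr8KO libraries, and 10.6 and 10.3 TPM in the serum libraries. On the plates its mean was 14.5 TPM in NPCs, 34 TPM in 2i, 16 TPM in Dgcr8KO, and 72.5 and 27 TPM in serum, and 94.0% of Dgcr8KO cells had at least 1 TPM. The knockout was thus lower than serum in every library but not at 0, and the tables do not show whether the reads came from the deleted part. All 8 mESC markers reached a mean of 1 TPM in every mESC group, where the summed fibroblast and primitive endoderm markers stayed at or below 1.97 TPM. The neural precursor markers moved with the groups: they summed to 58.7 TPM in 2i cells and 94.5 TPM in Dgcr8KO cells, against 14.8 and 13.5 TPM on the serum plates, and in bulk RNA to 8.75 TPM in 2i and 25.5 TPM in Dgcr8KO, against 5.02 TPM in serum. The neuron markers summed to 57.3 TPM in 2i cells and 34.2 TPM in Dgcr8KO cells, against 155 and 73.3 TPM on the serum plates. The part of either list in the changes below was not tested. In NPCs 6 of 8 neural precursor markers reached a mean of 1 TPM (summed mean 1371 TPM). All 8 mESC markers did as well (summed 645 TPM, against 8323 to 23253 TPM on the mESC plates), and 4 of 5 fibroblast markers (summed 94.1 TPM). The mESC markers had at least 1 TPM in 3.70% (Fgf4) to 55.6% (Nanog) of NPCs. The part of such cells in the spread and co-variation of NPCs below was not tested. The number of genes at 1 TPM or more differed between groups: 8991 in the 2i bulk library, 10820 and 11057 in the Dgcr8KO libraries, and 7562 and 8367 in the serum libraries. Per cell the medians were 7368 in NPCs, 9974 in 2i, 9317.5 in Dgcr8KO, and 7780 and 7648 on the serum plates.

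Mitochondria keep their own ribosome, which translates the few respiratory chain proteins encoded in mitochondrial DNA. Its RNA is made inside the organelle, but all its proteins are encoded in the nucleus, made in the cytosol and imported, so the nuclear members and the mitochondrial genome have to be used together. The transcription factors NRF1, GABP (an ETS factor) and YY1 are known regulators of nuclear genes for mitochondrial proteins, and MYC is known to raise them in growing cells.

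Promoters from RefSeq (build GRCm38.p6, 250 bases before to 50 bases after the gene start) were at hand for 67 members, in 73 promoters. The ETS letters CCGGAAG were in 32.9% of member promoters, against 8.86% of all 32851 promoters, counting both strands. The YY1 letters AAGATGG were in 17.8% against 6.34%, and the NRF1 letters GCATGCG in 11% against 3.58%. At least 1 of these motifs was in 49.3% of member promoters, against 17.3% of all. The TATAAA letters went the other way, at 6.85% against 13.6%, and the MYC-binding E-box CACGTG stood at 9.59% against 7.15%. Member promoters were also richer in G and C (median 58.3% against 52.7%) and in the CG dinucleotide (median 21 against 7 per promoter), which the motif letters share, so these shares are a description and not sites.

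The 6 promoters below are those of members that the results turn on, in lower case with the letters of the NRF1, ETS and YY1 motifs in capitals. Mrps11 and Mrpl46 are a head-to-head pair whose promoters overlap on opposite strands. Mrpl17 and Mrps12 had the largest rises in bulk RNA, Mrpl20 had the largest fall, and Mrps21 had the lowest H3K4me3 count.
Mrps11 (chr7:78782881-78783180, plus strand): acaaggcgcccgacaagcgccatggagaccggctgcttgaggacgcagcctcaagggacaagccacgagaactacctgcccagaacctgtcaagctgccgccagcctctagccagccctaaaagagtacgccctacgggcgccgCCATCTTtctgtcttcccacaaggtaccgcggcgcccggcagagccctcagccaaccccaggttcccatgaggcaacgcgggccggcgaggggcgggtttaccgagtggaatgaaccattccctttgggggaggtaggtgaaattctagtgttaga
Mrpl46 (chr7:78783040-78783339, minus strand): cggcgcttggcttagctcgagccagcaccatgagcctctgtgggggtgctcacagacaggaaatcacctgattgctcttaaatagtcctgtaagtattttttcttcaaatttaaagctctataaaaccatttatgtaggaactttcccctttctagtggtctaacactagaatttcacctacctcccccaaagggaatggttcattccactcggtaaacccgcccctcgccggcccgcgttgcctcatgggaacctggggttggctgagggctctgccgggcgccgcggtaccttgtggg
Mrpl17 (chr7:105811038-105811337, minus strand): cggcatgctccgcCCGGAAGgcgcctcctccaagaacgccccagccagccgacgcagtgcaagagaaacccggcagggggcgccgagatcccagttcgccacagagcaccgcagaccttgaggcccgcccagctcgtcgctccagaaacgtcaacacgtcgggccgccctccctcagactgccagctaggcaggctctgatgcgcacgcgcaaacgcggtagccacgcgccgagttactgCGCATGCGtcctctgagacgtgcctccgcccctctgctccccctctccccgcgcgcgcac
Mrps12 (chr7:28741772-28742071, minus strand): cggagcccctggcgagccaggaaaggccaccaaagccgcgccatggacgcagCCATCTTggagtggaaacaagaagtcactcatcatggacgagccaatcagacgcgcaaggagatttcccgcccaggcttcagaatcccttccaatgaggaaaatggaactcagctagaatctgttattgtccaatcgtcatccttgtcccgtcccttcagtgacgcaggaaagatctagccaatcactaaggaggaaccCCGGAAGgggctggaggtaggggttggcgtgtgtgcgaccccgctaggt
Mrpl20 (chr4:155802628-155802927, plus strand): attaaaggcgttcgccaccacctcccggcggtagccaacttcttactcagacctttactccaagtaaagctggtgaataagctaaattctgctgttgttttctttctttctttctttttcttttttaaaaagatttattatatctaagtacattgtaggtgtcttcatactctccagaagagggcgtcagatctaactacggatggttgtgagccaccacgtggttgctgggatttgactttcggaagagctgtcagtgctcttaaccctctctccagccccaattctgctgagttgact
Mrps21 (chr3:95871465-95871764, minus strand): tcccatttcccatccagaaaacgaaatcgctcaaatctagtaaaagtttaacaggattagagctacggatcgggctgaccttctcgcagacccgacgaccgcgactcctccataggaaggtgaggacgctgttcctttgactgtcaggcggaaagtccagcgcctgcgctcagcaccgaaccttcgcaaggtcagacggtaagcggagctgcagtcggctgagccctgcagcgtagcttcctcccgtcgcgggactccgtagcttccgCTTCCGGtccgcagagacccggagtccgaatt
The Mrpl17 promoter holds an ETS match and a pair of NRF1 matches on opposite strands that share most of their letters. The Mrps12 promoter holds a YY1 and an ETS match, Mrps11 a YY1 match and Mrps21 an ETS match. None of these letters occurs in the Mrpl46 and Mrpl20 windows shown.

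In bulk RNA the members sat high among the genes of every library. Their median was 43.9 TPM in 2i, 40.4 and 37.1 TPM in the Dgcr8KO libraries, and 32.8 and 28.6 TPM in the serum libraries. The median tested gene had 4.10 TPM in 2i, 8.51 and 8.12 TPM in Dgcr8KO, and 3.68 and 2.92 TPM in serum. Thus 73 members in 2i, 69 and 68 in Dgcr8KO, and 70 and 69 in serum lay above the median gene of their library.

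**Figure D1:**
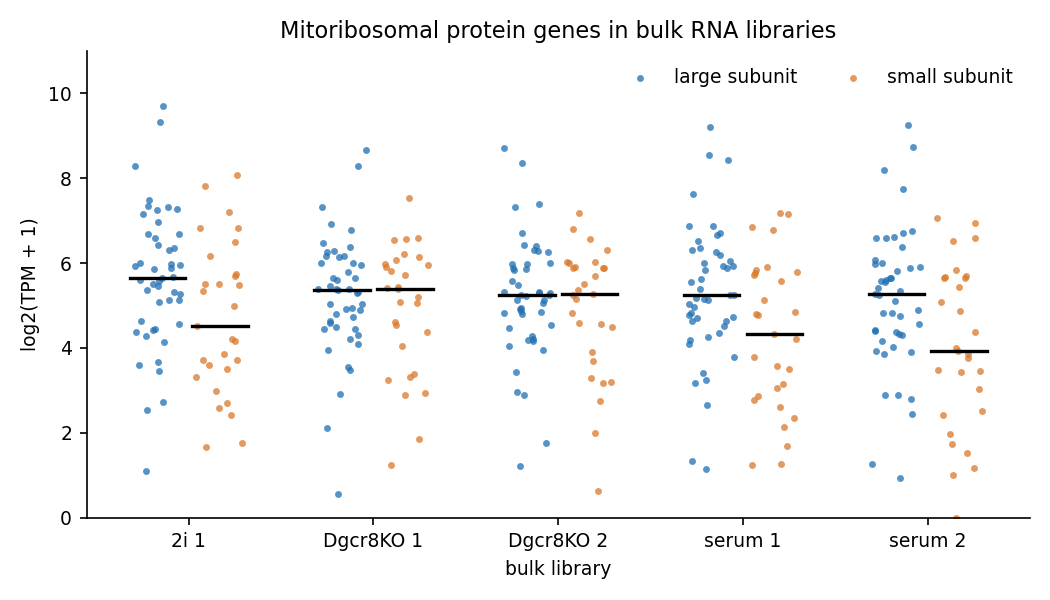
Level of each of the 76 members as log2(TPM + 1) in the 5 bulk libraries, with large subunit members in blue, small subunit members in orange and a black bar at each median. Large and small subunit medians stand apart in the 2i library (49.3 and 21.9 TPM) and in the serum libraries (37.1 and 19.1, 37.7 and 14.3 TPM), and lie together in the Dgcr8KO libraries (39.9 and 41.2, 36.8 and 37.4 TPM).

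The order of levels was led by Mrpl42, a large subunit protein without a bacterial counterpart. It had 828 TPM in 2i, 403 and 417 TPM in Dgcr8KO, and 588 and 609 TPM in serum, and was the highest member in all 5 libraries. The next in serum were Mrpl13, a counterpart of bacterial L13, with 375 and 423 TPM, Mrpl18 with 341 and 293 TPM, and Mrpl20 with 197 and 215 TPM. Mrps18b, the highest of the small subunit by name, followed with 143 and 133 TPM, close to Mrps21 with 142 and 122 TPM; the serum libraries of these last 2 overlapped.
At the low end in serum stood Mrps26 with 1.36 TPM in 1 library and listed at 0 in the other, Mrpl38 with 1.21 and 0.912 TPM, Mrps30 with 1.41 and 1.01 TPM, Mrpl3 with 1.52 and 1.40 TPM, and Mrps34 with 2.23 and 2.35 TPM. Mrpl3 and Mrps30 also stayed at or below 2.18 TPM in 2i and Dgcr8KO. Neighbours in the order overlapped at this end. MRPS30, like MRPS18A, is known from structures to sit in the large subunit although its name places it in the small one, and the subunits here follow the names.

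The first comparison asks what the loss of Dgcr8 did to these genes. On the TPM scale the median of all tested genes itself was 1.12 higher (log2) in Dgcr8KO than in serum bulk libraries, so changes below are relative to the median gene of each library unless said, and adding 1.12 returns the change as deposited. On that scale 51 of the 76 members fell in Dgcr8KO bulk RNA, against a background of 36.5% of 10081 tested genes, and 9 rose, against 21.8% (limma, Benjamini-Hochberg adjusted p under 0.05). The median change of the members was -0.94, against -0.20 for all tested genes. As deposited, 29 members were called higher (background 62.5%) and 21 lower (background 11.7%), with a median of 0.18. Centred on genes with a mean of 20 TPM or more, a choice made after seeing the data, 21 were called higher (background 47.3%) and 34 lower (background 18.3%). After quantile normalisation 18 were called higher (background 29%) and 36 lower (background 28.8%). The direction of the whole set in Dgcr8KO therefore rests on the scaling. On all of these 4 scales 20 of the falls (16 large, 4 small subunit) and all 9 rises were called. Against the median-gene scale, values as deposited and centred on genes of 20 TPM move every Dgcr8KO change up. Rises had little room to be lost there, and the share of all tested genes called on all 4 scales is not given.

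The falls were led by large subunit members. Mrpl20, a counterpart of bacterial L20, which binds the large ribosomal RNA, had 21.4 and 17.1 TPM in Dgcr8KO, against 197 and 215 TPM in serum. The groups stood far apart, with a change of -4.48 (SE 0.17, adjusted p = 5.09e-06, limma). Mrpl13 had 82.7 and 61.6 TPM in Dgcr8KO, against 375 and 423 TPM in serum, a change of -3.59 (SE 0.19, adjusted p = 1.26e-05, limma). Mrpl18, the counterpart of bacterial L18, had 63.5 and 63.1 TPM in Dgcr8KO, against 341 and 293 TPM in serum, a change of -3.42 (SE 0.12, adjusted p = 4.45e-06, limma). For these 3 genes both Dgcr8KO libraries lay below both serum libraries as deposited as well. The same order was seen in 25 of the 76 members (background 15.4% of 10081 genes). Mrpl33, one of the smallest members, had 41.1 and 29.5 TPM in Dgcr8KO, against 101 and 103 TPM in serum. Mrps17, a counterpart of bacterial S17, had 22.3 and 22.5 TPM in Dgcr8KO, against 53 and 49.2 TPM in serum. Both fell, with changes of -2.65 (SE 0.18, adjusted p = 3.04e-05, limma) for Mrpl33 and -2.27 (SE 0.14, adjusted p = 1.91e-05, limma) for Mrps17.

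Mrpl12 and Mrpl11 were chosen for their place in the stalk of the large subunit, where translation factors dock, and Mrpl10, which anchors it, is given beside them. All 3 were called lower, as were 36 of the 47 large subunit members, so their falls do not set the stalk apart. Mrpl12, the stalk protein, which is also known to bind the mitochondrial RNA polymerase, had 61 and 77.3 TPM in Dgcr8KO, against 116 and 96.6 TPM in serum (-1.74, SE 0.16, adjusted p = 0.000116, limma). Mrpl11, at the stalk base, had 16.1 and 15.5 TPM in Dgcr8KO, against 25.1 and 22.5 TPM in serum (-1.68, SE 0.14, adjusted p = 7.25e-05, limma). Mrpl10 had 31.8 and 32.6 TPM in Dgcr8KO, against 35.1 and 25.9 TPM in serum. Its libraries overlapped as deposited, and relative to the median gene it fell (-1.03, SE 0.14, adjusted p = 0.000772, limma).

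The 3 Mrps18 genes are variants of a single bacterial protein, S18, that take different places in the mitochondrial ribosome, with MRPS18A known to sit in the large subunit. Mrps18a had 66.3 and 63.7 TPM in Dgcr8KO, against 46.7 and 42 TPM in serum, so it was called lower relative to the median gene (-0.58, SE 0.13, adjusted p = 0.00695, limma) and higher as deposited (0.54, adjusted p = 0.0130, limma). Mrps18b had 184 and 143 TPM in Dgcr8KO, against 143 and 133 TPM in serum, and was lower relative to the median gene but not as deposited (-0.88, SE 0.15, adjusted p = 0.00193, limma). Mrps18c had 61.5 and 57.8 TPM in Dgcr8KO, against 115 and 94.6 TPM in serum, and fell on either scale (-1.92, SE 0.12, adjusted p = 2.18e-05, limma).

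Of the 9 rises 6 were in the small subunit, a share of its 29 members near the background of 21.8%. Mrps12, the counterpart of bacterial S12 in the decoding centre, had 42.1 and 44.2 TPM in Dgcr8KO, against 5.15 and 2.96 TPM in serum. The change was 2.04 (SE 0.18, adjusted p = 0.000100, limma), and the groups stood far apart. Mrps22, a gene mutated in human mitochondrial disease, had 32.2 and 21.5 TPM in Dgcr8KO, against 4.08 and 1.25 TPM in serum (1.89, SE 0.32, adjusted p = 0.00211, limma). Mrps10 had 41.2 and 34.7 TPM in Dgcr8KO, against 5.90 and 7.20 TPM in serum (1.25, SE 0.20, adjusted p = 0.00167, limma). Mrps36, a protein also described in human cells as a part of the 2-oxoglutarate dehydrogenase complex, had 95.6 and 93.6 TPM in Dgcr8KO, against 26.6 and 15.1 TPM in serum (1.06, SE 0.19, adjusted p = 0.00250, limma). From the large subunit Mrpl38 had 10.7 and 9.86 TPM in Dgcr8KO, against 1.21 and 0.912 TPM in serum (1.33, SE 0.19, adjusted p = 0.000856, limma), Mrpl37 had 28.8 and 37.2 TPM in Dgcr8KO, against 8 and 6.48 TPM in serum (0.92, SE 0.19, adjusted p = 0.00451, limma), and Mrpl17 rose by 0.92 (SE 0.17, adjusted p = 0.00303, limma). The other 2 called higher were Mrps2 and Mrps5.

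**Figure D2:**
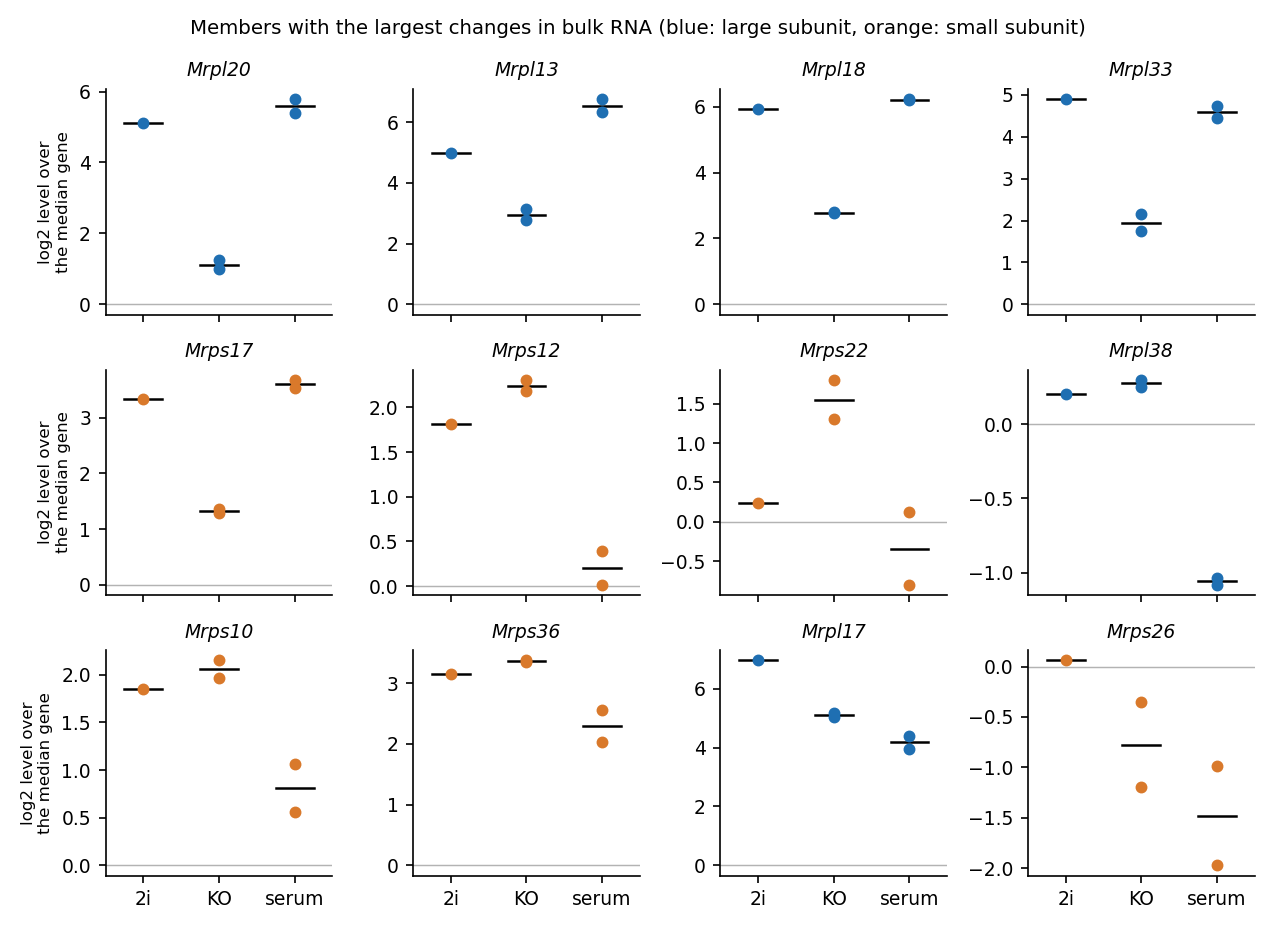
Log2 level over the median gene of its library for 12 members, with 1 point per library (2i 1, Dgcr8KO 2, serum 2), a black bar at the group mean and separate y axes. Shown are the 5 largest called falls and 5 largest called rises in Dgcr8KO bulk RNA, and Mrpl17 and Mrps26 from the largest rises in 2i. Some called falls that are not shown were larger than some of the rises shown. Mrpl20, Mrpl13 and Mrpl18 are low in Dgcr8KO, Mrps12, Mrpl38, Mrps10 and Mrps36 are high in 2i and Dgcr8KO, and Mrpl17 is highest in 2i.

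Large and small subunit members parted in Dgcr8KO. The counts of called members move with the centring. The difference of the subunit medians cannot move with it, because centring shifts all genes of a library alike, so that is no check of the difference. Relative to the median gene, of 47 large subunit members 36 fell and 3 rose, with a median change of -1.23. Of 29 small subunit members 15 fell and 6 rose, with a median of -0.52. The backgrounds were 36.5% lower and 21.8% higher, and the small subunit rises lay near theirs. As deposited, 17 large subunit members were called lower and 14 higher (median -0.11), and 4 small subunit members lower and 15 higher (median 0.60). The backgrounds there were 11.7% lower and 62.5% higher, and the small subunit lay near the first and below the second. The difference of the subunit medians was -0.71 in bulk and -0.59 on the plates. As levels, the large subunit median lay 0.05 and 0.02 (log2) below the small subunit median in the Dgcr8KO libraries, against 0.92 and 1.34 above it in the serum libraries. On the plates it lay 0.22 above in Dgcr8KO cells, against 0.79 and 0.92 above on the serum plates.

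Genes of the members' level had themselves a median change of -0.47 in Dgcr8KO bulk RNA. Each member was also set against the running median change of the genes of like level, a view added after seeing the data and read without a test. On that scale the members' median change in bulk was -0.38, with -0.55 for the large and -0.16 for the small subunit. A 2-fold or larger fall remained for 20 members (background 16.7%), 16 of them large, and a 2-fold or larger rise for 10 (background 15.2%). On the plates the members' median was -0.04, with -0.20 for the large and 0.19 for the small subunit, and 5 members stood 2-fold or more above (background 13.5%) and 10 below (background 16.8%). Much of the shift of the set was thus shared by genes of like level, and the large subunit stayed below the small by 0.39 in bulk and 0.39 on the plates.

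**Figure D3:**
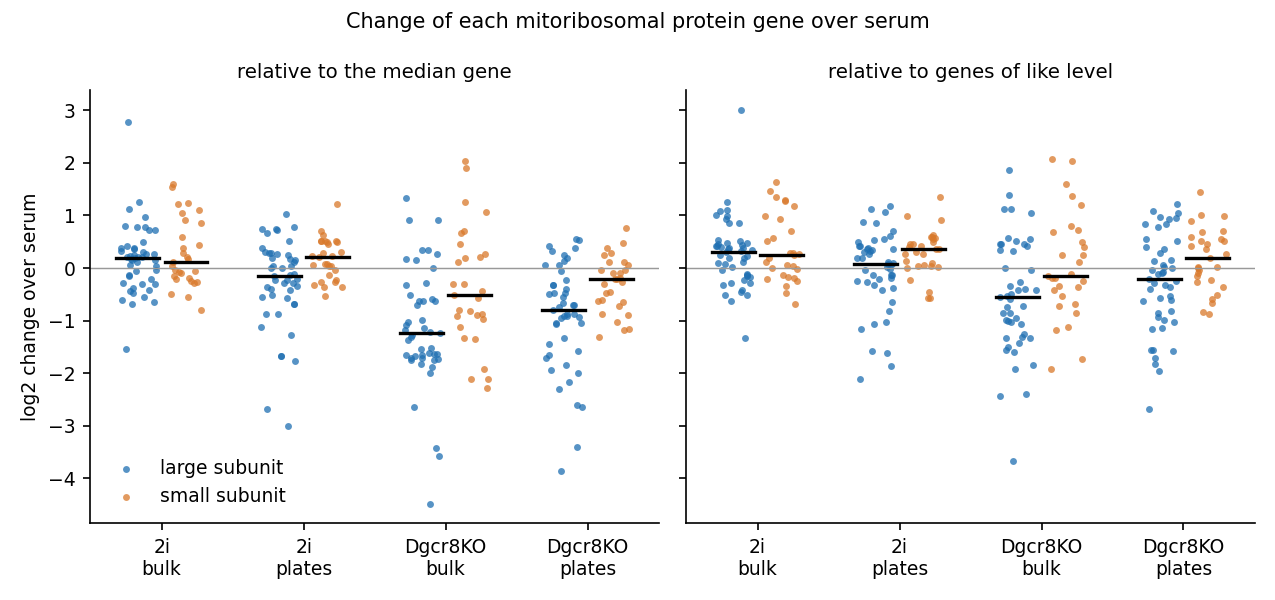
Log2 change over serum of each member in 2i and Dgcr8KO, in bulk RNA and on the single-cell plates, relative to the median gene (left) and to the genes of like level (right), with large subunit members in blue, small in orange and a black bar at each median. In Dgcr8KO the large subunit medians (-1.23 in bulk, -0.79 on the plates) lie below the small subunit medians (-0.52 and -0.20).

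Other nuclear gene groups gave a frame for these values. Of 81 cytosolic ribosomal protein genes 73 fell and 3 rose in Dgcr8KO bulk RNA (median -1.82), and against genes of like level their median was -0.17. As deposited 55 of them were called lower and 12 higher, with a median of -0.70. Of 79 nuclear respiratory chain subunits 48 fell and 17 rose (median -0.63), while against genes of like level they stood at 0.48. Their direction turned with the scaling, to 42 called higher and 22 lower as deposited and 39 higher and 24 lower after quantile normalisation. In bulk samples fewer cells that express a gene and less RNA per cell cannot be told apart.

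The same contrast was read on the plates, with the mean TPM over the cells of a plate as the level. The serum bulk libraries carry the plate numbers of the serum cell plates in their labels, so bulk and plates may share cultures, and calls found in both are not independent support. Here the median gene stood 1.54 higher in Dgcr8KO and 1.32 higher in 2i than on the serum plates. Relative to it, 28 members fell in Dgcr8KO cells (background 28.2% of 12397 tested genes) and 0 rose (background 17.6%; limma, with 1 member at an unadjusted p under 0.05, and 21 members called higher in the values as deposited). As deposited the split was 21 higher (background 50%) and 1 lower (background 2.97%), the 1 being Mrpl20. Centred on genes of 20 TPM or more it was 11 higher (background 37.8%) and 12 lower (background 16.2%), and after quantile normalisation 5 higher (background 13%) and 3 lower (background 7.90%). Of the 28 members called lower on the plates 27 were also called lower in bulk (96.4% of the plate calls, 52.9% of the bulk calls). By subunit 22 of the 28 were large and 6 small.

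Mrpl20 was the one fall called on every scale in both kinds of data. Its mean was 80.9 TPM in Dgcr8KO cells, against 181 and 160 TPM on the serum plates, with a change of -2.61 (SE 0.34, adjusted p = 0.000153, limma). Mrpl18 had 139 TPM in Dgcr8KO cells, against 165 and 147 TPM on the serum plates (-1.71, SE 0.35, adjusted p = 0.00260, limma), and Mrpl12 had 117 TPM, against 132 and 109 TPM (-1.58, SE 0.33, adjusted p = 0.00299, limma). The large bulk rise of Mrps12 was not seen on the plates relative to the median gene (-0.04, SE 0.33, adjusted p = 0.937, limma). Its TPM were higher, with 176 TPM in Dgcr8KO cells, against 75.1 and 50.2 TPM in serum cells. Against genes of like level it stood at 0.69. None of the 9 members that rose in bulk passed as higher on the plates relative to the median gene. Against genes of like level these 9 lay between -0.20 (Mrpl17) and 1.46 (Mrps36) there, read without a test. Mrps36 came nearest with 209 TPM in Dgcr8KO cells, against 44 and 39.1 TPM in serum cells (0.76, SE 0.31, adjusted p = 0.0633, limma).

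A few large subunit members stood out on the serum plates. Mrpl9 had 98.4 TPM in Dgcr8KO cells, against 351 and 705 TPM on the serum plates, and Mrpl13 had 250 TPM, against 1239 and 673 TPM. Mrpl43 had 116 TPM in Dgcr8KO cells, against 205 and 306 TPM. Their changes were -3.87 (SE 0.51, adjusted p = 0.000148, limma) for Mrpl9, -3.41 (SE 0.46, adjusted p = 0.000173, limma) for Mrpl13 and -2.64 (SE 0.42, adjusted p = 0.000536, limma) for Mrpl43, the 3 largest falls on the plates.
In serum bulk RNA Mrpl9 had only 33.9 and 47.9 TPM, so that relative to the median gene its level on the serum plates was 3.51 (log2) above that in bulk, against a median of 0.39 over the 76 members; bulk and cell tables were normalized separately. From cell to cell Mrpl9, Mrpl13 and Mrpl43, with Mrpl19, were the 4 members whose mean Spearman correlation with the other members was below 0 on both serum plates. For Mrpl9 it was -0.17 and -0.08, for Mrpl13 -0.22 and -0.03, and for Mrpl43 -0.11 and -0.14. Their levels also differed between the serum plates: Mrpl9 stood 1.29 and Mrpl43 0.86 lower on plate 1 than on plate 2, and Mrpl13 stood 0.60 higher. The part of the plate in their changes was not tested.

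The second comparison asks how the members stand in 2i, with a single bulk library. In bulk RNA 15 members rose in 2i (background 13.8%) and 4 fell (background 18.7%), with a median change of 0.18 against -0.05 for all genes. The median gene moved by 0.25 over serum. As deposited 22 were higher (background 20.4%) and 1 lower (background 11.8%), centred on genes of 20 TPM or more 20 higher (background 19.2%) and 2 lower (background 14.7%), and after quantile normalisation 16 higher (background 16.2%) and 2 lower (background 17.1%). All 15 rises were called on each of these scales, and of the falls only that of Mrpl13 was. Values as deposited and centred on genes of 20 TPM or more move every 2i change up, so rises had little room to be lost there. By subunit 7 large and 8 small members rose, and the difference of the subunit medians was 0.07. Against genes of like level the members' median was 0.26, with 10 members 2-fold or more above (background 10.7%) and 1 below (background 11.3%). Of the 79 respiratory chain subunits 43 were called higher and 6 lower, with a median change of 0.70.

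Mrpl17, a counterpart of bacterial L17, had the largest rise, with 634 TPM in 2i, against 72.1 and 82.3 TPM in serum; Dgcr8KO lay between at 312 and 327 TPM. The change in 2i was 2.77 (SE 0.21, adjusted p = 0.000174, limma). On the plates Mrpl17 had 316 TPM in 2i cells, against 110 and 255 TPM on the serum plates, which differed from each other by 1.5 (log2), and the change did not pass (-0.40, SE 0.53, adjusted p = 0.596, limma). Mrps12 had 16.9 TPM in 2i, against 5.15 and 2.96 TPM in serum (1.61, SE 0.22, adjusted p = 0.00199, limma). Mrpl38 had 4.86 TPM in 2i, against 1.21 and 0.912 TPM (1.26, SE 0.23, adjusted p = 0.00618, limma), and Mrps24 had 8.96 TPM, against 3.39 and 1.87 TPM (1.24, SE 0.27, adjusted p = 0.0124, limma). Mrps26 had 4.32 TPM in 2i, against 1.36 TPM in 1 serum library and a listed 0 in the other, and just passed (adjusted p = 0.0478, limma). Without the serum library listed at 0, Mrps26 did not pass (adjusted p = 0.120, limma, and 0.0130 to 0.109 over its other alternatives, of which pseudocount 0.1 gave the highest). Apart from Mrpl17, these genes had at most 5.15 TPM in serum.
Of the members chosen for their role, Mrpl11 had 47.9 TPM in 2i, against 25.1 and 22.5 TPM in serum (0.73, SE 0.17, adjusted p = 0.0164, limma), and Mrps18c had 269 TPM, against 115 and 94.6 TPM (1.11, SE 0.15, adjusted p = 0.00167, limma). Mrps36 rose as well, with 44.3 TPM in 2i, against 26.6 and 15.1 TPM (0.85, SE 0.23, adjusted p = 0.0281, limma). Mrpl12, Mrps18a, Mrps18b and Mrpl37 did not pass in 2i, with changes between -0.55 and 0.17.

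The 4 falls in 2i were Mrpl13, Mrps31, Mrpl10 and Mrps21. Mrpl13 had 162 TPM in 2i, against 375 and 423 TPM in serum (-1.54, SE 0.23, adjusted p = 0.00277, limma). Mrps31 had 10.3 TPM, against 17.5 and 13.6 TPM (-0.79, SE 0.18, adjusted p = 0.0134, limma). Mrpl10 had 22.7 TPM, against 35.1 and 25.9 TPM (-0.65, SE 0.17, adjusted p = 0.0280, limma), and Mrps21 had 112 TPM, against 142 and 122 TPM (-0.49, SE 0.15, adjusted p = 0.0425, limma). In each of these genes the 2i library lay below both serum libraries, an order that their choice as called falls favours. The call of Mrps21 was lost when any 1 serum or Dgcr8KO library was left out (adjusted p from 0.0599 to 0.0925, limma), and that of Mrpl10 without serum library 1 (adjusted p = 0.0705, limma, and 0.0236 to 0.259 over its other alternatives).

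On the plates 3 members rose in 2i (background 14.3%) and 7 fell (background 20.7%), with a median change of 0.03, or -0.04 without the first serum plate. As deposited 28 were higher (background 39%) and 0 lower (background 1.82%; limma, with 0 at an unadjusted p under 0.05). Centred on genes of 20 TPM or more 8 were higher (background 21.1%) and 6 lower (background 17.6%), and after quantile normalisation 0 were called in either direction (backgrounds 6.33% higher and 3.54% lower; limma, with 18 higher and 4 lower at an unadjusted p under 0.05). The 3 rises, Mrps10, Mrpl53 and Mrpl38, were called in bulk too. Mrps10 had 188 TPM in 2i cells, against 37.9 and 26.3 TPM on the serum plates (1.22, SE 0.30, adjusted p = 0.00969, limma). The 7 falls were all of the large subunit: Mrpl13, Mrpl9, Mrpl10, Mrpl1, Mrpl43, Mrpl27 and Mrpl3. They were all among the falls in Dgcr8KO cells, a comparison that shares the serum plates. Mrpl13 had 281 TPM and Mrpl9 192 TPM in 2i cells, against the serum values given above, with changes of -3.01 (SE 0.46, adjusted p = 0.000565, limma) and -2.69 (SE 0.51, adjusted p = 0.00208, limma). The difference of the subunit medians of change was -0.37 on the single 2i plate, against 0.07 in 2i bulk RNA. As levels the large subunit median lay 0.44 above the small in 2i cells, against 0.79 and 0.92 on the serum plates. In bulk RNA the 2i value of 1.14 lay between those of serum (0.92 and 1.34). So few plates give no firm measure of the spread of this difference. Against genes of like level the members' median on the 2i plate was 0.19, with 4 members 2-fold or more above (background 9.49%) and 7 below (background 14.2%).

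Partners of the mitochondrial ribosome and regulators of nuclear mitochondrial genes were taken from a list chosen with earlier results known. Of 9 tested regulators 5 fell and 1 rose in Dgcr8KO bulk RNA, and Myc alone passed in 2i. Myc, the growth regulator, fell most, with changes of -3.89 (SE 0.25, adjusted p = 2.39e-05, limma) in Dgcr8KO and -3.59 (SE 0.31, adjusted p = 0.000281, limma) in 2i. On the plates Myc changed by -4.43 in Dgcr8KO (adjusted p = 1.69e-06, limma) and -5.09 in 2i (adjusted p = 5.98e-07, limma). Mycn fell by 1.81 in Dgcr8KO bulk RNA (adjusted p = 0.000339, limma), Nrf1 by 0.83 (adjusted p = 0.00369, limma) and Yy1 by 0.58 (adjusted p = 0.0434, limma), and Gabpa was at -0.35 (adjusted p = 0.218, limma). As deposited Nrf1 and Yy1 were not below serum, since the median gene shift of 1.12 is larger than their fall.
The backgrounds given above, 36.5% lower and 21.8% higher in Dgcr8KO and 18.7% lower and 13.8% higher in 2i, hold for these lists as well; the translation factors in Dgcr8KO lay near them, and the lists are short. Among 14 mitochondrial translation factors 5 fell and 3 rose in Dgcr8KO bulk RNA, and 3 fell and 1 rose in 2i. Tufm, the mitochondrial elongation factor Tu, changed by -1.38 in Dgcr8KO (adjusted p = 9.78e-05, limma) and -1.26 in 2i (adjusted p = 0.00111, limma). Of 16 mitochondrial aminoacyl-tRNA synthetases 8 fell and 2 rose in Dgcr8KO, and of 16 assembly and ribosomal RNA factors 4 fell and 1 rose. Of 7 mitochondrial transcription and replication genes 5 fell and 1 rose, and among those that fell Tfam, which packs mitochondrial DNA, fell by 1.68 (adjusted p = 0.000283, limma). Of 6 mitoribosomal proteins that carry other names 4 fell and 1 rose: Chchd1 fell by 2.05 (adjusted p = 2.13e-05, limma) and Ptcd3 by 1.90 (adjusted p = 2.87e-05, limma), while Gadd45gip1 rose by 1.36 (adjusted p = 0.000417, limma). These Dgcr8KO counts too rest on the scaling: as deposited the median of each of these 6 lists lay above 0, between 0.16 and 0.85, and 8 translation factors were called higher and 2 lower. On the plates, relative to the median gene, 3 of 10 regulators, 4 of 15 translation factors, 10 of 20 synthetases, 6 of 18 assembly factors and 4 of 9 transcription and replication genes fell in Dgcr8KO, against a background of 28.2%. Of the 6 mitoribosomal proteins with other names 0 passed on the plates (limma, with 0 at an unadjusted p under 0.05): Chchd1 was at -0.19 (adjusted p = 0.653, limma), Ptcd3 at -0.41 (adjusted p = 0.267, limma) and Gadd45gip1 at 0.24 (adjusted p = 0.497, limma), so their bulk calls were not repeated there. The 2 list genes called higher were synthetases. Iars2, for isoleucine, rose by 2.43 (adjusted p = 3.06e-05, limma), and by 1.54 in bulk RNA (adjusted p = 0.00126, limma). Lars2, for leucine, rose by 2.48 on the plates (adjusted p = 0.000499, limma) and fell by 5.13 in bulk RNA (adjusted p = 9.18e-06, limma).

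The third question is how evenly single cells expressed the members. In the median cell 55.5 members had a TPM of at least 1 in NPCs, 76 in 2i, 74 in Dgcr8KO, and 75 on each serum plate. The range over cells was 34 to 74 in NPCs, 71 to 76 in 2i, 62 to 76 in Dgcr8KO, and 71 to 76 and 72 to 76 on the serum plates. Members found in every cell numbered 3 in NPCs, 63 in 2i, 28 in Dgcr8KO, and 55 and 58 on the serum plates. Mrps30 was found in the fewest cells on each plate, in 35.2% of NPCs, 71.3% of 2i cells, 66.7% of Dgcr8KO cells, and 67.8% and 58.1% of serum cells. Read depth per cell is unknown from TPM, so a gene missed in a cell and a gene absent from it cannot be told apart.

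Spread was measured as the SD over cells of log2(TPM + 1), minus the running median SD of the genes of like mean level on the same plate. On the serum plates the members' median excess SD was 0.003 and -0.006, with 39 and 37 of 76 above 0. In 2i it was 0.050, with 47 above 0. In Dgcr8KO it was 0.181, with 56 above 0, and in NPCs 0.471, with 63 above 0. Where only cells with a TPM of at least 1 were used, the medians dropped to 0.027 in Dgcr8KO and 0.068 in NPCs, so most of the excess there went with cells in which a member was not detected. Cytosolic ribosomal proteins had a median excess SD below 0 on every plate, between -0.139 in NPCs and -0.044 in 2i. Nuclear respiratory chain subunits had a median of 0.422 in NPCs, with 67 of 76 above 0, so the excess in NPCs was not particular to the members. Theirs was -0.009 in 2i, -0.004 in Dgcr8KO, and -0.008 and -0.032 on the serum plates.

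**Figure D4:**
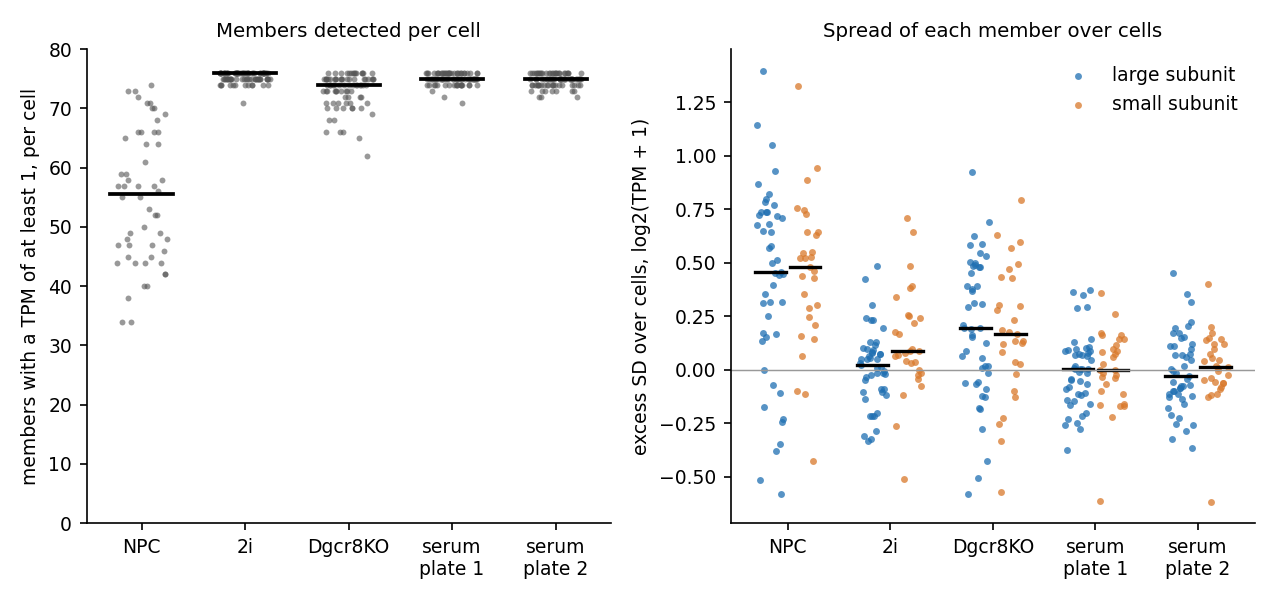
Left, number of the 76 members with a TPM of at least 1 in each cell, with 1 point per cell and a bar at the median. Right, excess SD over cells of each member on each plate, with large subunit members in blue, small in orange and a bar at each median. Detected members fall to a median of 55.5 in NPCs, and the excess SD is centred near 0 on the serum plates and above 0 in Dgcr8KO and NPCs.

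Single members differed from each other in their excess SD. Mrpl10 (0.37 and 0.45), Mrpl14 (0.35 and 0.32) and Mrps6 (0.26 and 0.40) had the largest mean excess SD over the serum plates. The window of Mrps6 overlaps that of Slc5a3 on the same strand, and how reads of the pair were assigned is not known. Mrps25 (-0.61 and -0.62), Mrpl35 (-0.26 and -0.37) and Mrpl11 (-0.37 and -0.21) had the smallest. Mrps25 stayed far below 0 in 2i (-0.51) and Dgcr8KO (-0.57) and was at -0.10 in NPCs. Mrpl20, uniform in serum (0.01 and -0.08), was at 0.69 in Dgcr8KO, where its mean was lowest, and at 1.40 in NPCs. Mrps12 kept between 0.01 and 0.13 on the mESC plates.

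Members varied together from cell to cell, weakly. The mean pairwise Spearman correlation among members was 0.177 over 54 NPCs, 0.018 over 94 2i cells, 0.048 over 84 Dgcr8KO cells, and 0.178 and 0.114 over 90 and 93 serum cells. All tested genes gave 0.024 in NPCs, 0.004 in 2i, 0.012 in Dgcr8KO, and 0.038 and 0.032 in serum. Genes with a mean of at least 20 TPM, nearer the members in level, gave 0.053 in NPCs, 0.008 in 2i, 0.020 in Dgcr8KO, and 0.078 and 0.037 in serum, while members above that level gave 0.194 in NPCs, 0.019 in 2i, 0.046 in Dgcr8KO, and 0.175 and 0.110 in serum. Other sets varied together more: respiratory chain subunits gave 0.221 in NPCs, 0.115 in 2i, 0.087 in Dgcr8KO, and 0.324 and 0.217 in serum, and cytosolic ribosomal proteins 0.462 in NPCs, 0.284 in 2i, 0.235 in Dgcr8KO, and 0.550 and 0.508 in serum. Pairs within the small subunit averaged 0.223 and 0.166 on the serum plates, pairs within the large 0.155 and 0.089, and pairs across the subunits 0.183 and 0.119, so pairs across the subunits lay between the others. With the number of genes detected per cell taken out the mean among members was 0.125 in NPCs, 0.018 in 2i, 0.042 in Dgcr8KO, and 0.165 and 0.074 in serum. Cells of a plate were taken to share its library preparation, and these values are a description.
Over cells the mean log2 level of the members had a Spearman correlation with that of nuclear respiratory chain subunits of 0.957 in NPCs, 0.429 in 2i, 0.482 in Dgcr8KO, and 0.823 and 0.707 in serum. With cytosolic ribosomal proteins it was 0.760 in NPCs, 0.370 in 2i, -0.048 in Dgcr8KO, and 0.550 and 0.230 in serum. With the number of genes detected taken out, the values for respiratory chain subunits were 0.945 in NPCs, 0.435 in 2i, 0.512 in Dgcr8KO, and 0.784 and 0.525 in serum. Those for cytosolic ribosomal proteins were 0.773 in NPCs, 0.373 in 2i, 0.022 in Dgcr8KO, and 0.443 and -0.051 in serum, so on the second serum plate and in Dgcr8KO the sign turned. The member mean also followed the mean of all tested genes in NPCs (0.844) and serum (0.853 and 0.880), more than in Dgcr8KO (0.681) and 2i (0.249). Its SD over cells was 1.25 in NPCs, 0.136 in 2i, 0.355 in Dgcr8KO, and 0.385 and 0.279 in serum.

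In NPCs the members were lower, relative to the median gene, than in any mESC plate. On genes of both tables their median level was 1.97 (log2) above the median gene in NPCs, against 3.11 to 3.60 on the mESC plates. Of the 76 members 65 lay below all 4 mESC plates (background 44.8% of 13380 genes) and 2, Mrps6 and Mrps30, above all 4 (background 31.1%). The tables were normalized separately and NPCs were treated as 1 plate, so no test was made. As deposited the members were not clearly lower in NPCs than in serum. Their median of the mean TPM lay above those of the serum plates (48.9 and 38.9 TPM). It lay below those of 2i (118 TPM) and Dgcr8KO cells (97.8 TPM). Their summed mean was 6005 TPM in NPCs, against 6397 and 6012 TPM on the serum plates. The direction against serum therefore rests on the scaling. The members with the lowest level against the serum mean were Mrpl9 (-5.05), Mrpl13 (-4.18) and Mrpl19 (-3.94), and Mrpl42 remained the highest member at 329 TPM. Mrps6 had 98.3 TPM in NPCs, against 20.2 and 20.8 TPM on the serum plates. Relative to the median gene it stood only 0.17 (log2) above the serum mean. The same move was seen in cytosolic ribosomal proteins, where 80 of 81 lay below all mESC plates, and in respiratory chain subunits, where 70 of 77 did. Genes detected per cell and the marker sums above moved with these levels, and their part was not tested.

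ChIP-seq gave raw counts in windows of 1000 bases. Neighbouring genes on opposite strands had windows as far apart as their RefSeq gene starts, within 50 bases, in 40.7% of 2129 pairs, and as far apart as gene ends or centres in 0%, so the windows were read as lying at gene starts. Member windows were marked as active. The median H3K4me3 count was 984 in 2i, 530 in Dgcr8KO and 1559 in serum, against 128, 111 and 273 for all windows, which put the members at percentile 84.5 in 2i, 83.6 in Dgcr8KO and 85.1 in serum. For H3K27ac the median percentile was 79.8 in 2i, 78.2 in Dgcr8KO and 80.9 in serum, and for RNAP2 81.7, 79.3 and 81.7. H3K27me3, the Polycomb mark, was low, at percentile 36.8 in 2i, 26 in Dgcr8KO and 28.3 in serum, with a member median of 12 to 14 reads, against 23 to 27 reads in whole cell extract. H3K36me3, a mark of gene bodies, and H3K9me3 also had medians of 13 to 22 reads in these windows, below the whole cell extract of their group. Counts are of 1 library each, and Poisson intervals cover counting error only.

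**Figure D5:**
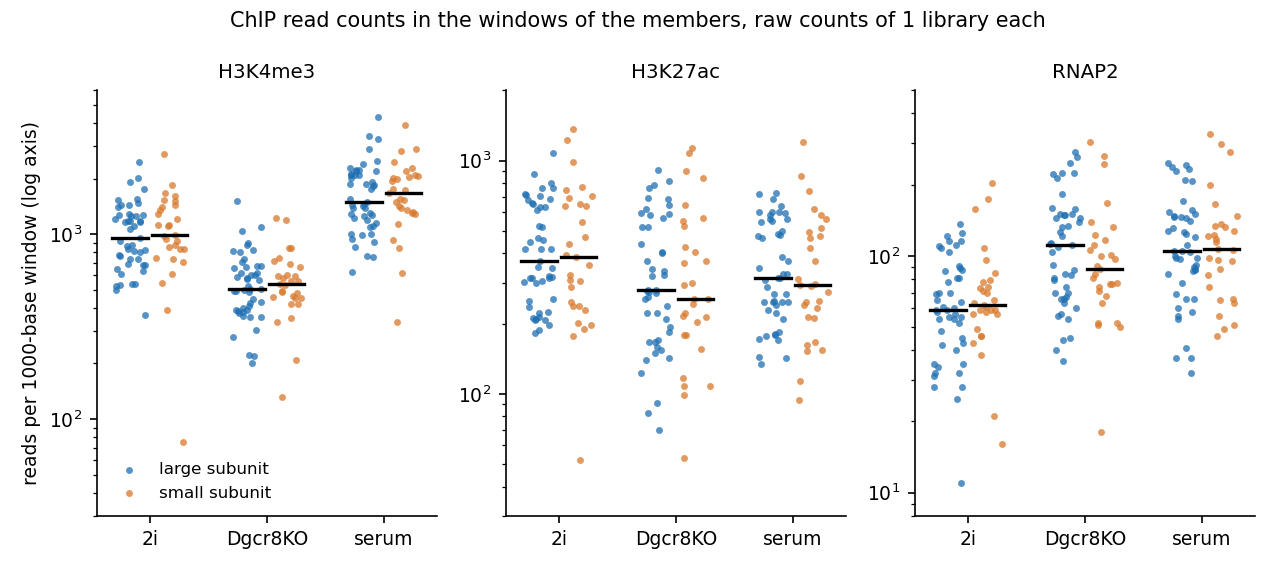
Raw read counts of H3K4me3, H3K27ac and RNAP2 in the 1000-base windows of the members (log axes), with large subunit members in blue, small in orange and a bar at each median. Totals differ between libraries, so heights compare members within a group and not groups; Mrps21 is the low H3K4me3 point in each group (75 in 2i, 131 in Dgcr8KO, 334 in serum).

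Mrpl48 had the highest H3K4me3 count in Dgcr8KO and serum (2447 reads in 2i, 1513 in Dgcr8KO, 4290 in serum), and Mrps7 in 2i (2706 reads). Mrps21 had the lowest in all 3 groups, with 75 reads in 2i (95% Poisson interval 59 to 94.0), 131 in Dgcr8KO (110 to 155) and 334 in serum (299 to 372), and the highest H3K36me3 count of the members in all groups (53, 28 and 47 reads), although its RNA was among the highest of the small subunit. Across the 76 members bulk TPM and RNAP2 count had a Spearman correlation of 0.05 in 2i, 0.22 in Dgcr8KO and 0.23 in serum, and TPM and H3K4me3 count -0.08, -0.15 and -0.13, given as a description.

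Relative to the median window few member windows changed 2-fold. For H3K4me3 the median log2 ratio over serum was -0.06 in 2i and -0.35 in Dgcr8KO, where 3 of 76 members were above 0. This Dgcr8KO median lay below the lower quartile of all windows (-0.29), so nearly all members shared a small shift down. In Dgcr8KO 0 members reached a 2-fold rise (background 24.1%) or fall (background 1.13%), and in 2i 0 rose (background 10.2%) and 1, Mrps21, fell 2-fold (background 7.65%). With a summed count of at least 50 asked of a window the medians were 0.01 in 2i and -0.19 in Dgcr8KO. There 17 members were above 0 in Dgcr8KO, and the lower quartile of all windows was -0.21. For H3K27ac the median was 0.09 in 2i and 0.08 in Dgcr8KO. In 2i 0 members reached a 2-fold rise (background 4.77%) and 1, Mrps21, a 2-fold fall (background 10.5%), and in Dgcr8KO 0 did either (backgrounds 3.51% and 7.93%). For RNAP2 the median was -0.09 in 2i and -0.20 in Dgcr8KO. Members down 2-fold or more were Mrpl3, Mrpl36 and Mrpl23 in 2i (3 members, background 8.09%) and Mrps21, Mrpl32 and Mrps33 in Dgcr8KO (3 members, background 4.82%), and 0 were up in either (backgrounds 10.2% and 9.19%). No test is possible with 1 library a group.
The genes with the largest RNA changes did not stand apart here. Mrpl20 had 528 H3K4me3 reads in Dgcr8KO, against 1748 in serum, a ratio of -0.45 relative to the median window, and 87 RNAP2 reads, against 86, a ratio of -0.14. Mrpl17 had 1252 H3K4me3 reads in 2i, against 2008 in serum, a ratio of -0.06, and 87 RNAP2 reads, against 144, also -0.06. Mrps12 had 139 RNAP2 reads in Dgcr8KO, against 122, a ratio of 0.03.

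Many members share their start region with another gene. The windows of 27 of the 76 members (35.5%) overlapped that of a gene on the other strand, against 11% of all 23142 genes. Partners included Sars2, the mitochondrial seryl-tRNA synthetase, for Mrps12, Ndufb5, a subunit of respiratory complex I, for Mrpl47, Peo1, the mitochondrial helicase, for Mrpl43, Fau for Mrpl49, Mtbp for Mrpl13 and Tcp1 for Mrpl18. The pair shown above, Mrps11 and Mrpl46, had windows that overlapped by 959 bases, and so near-equal H3K4me3 counts of 1537 and 1545 in 2i, 716 and 733 in Dgcr8KO, and 2475 and 2491 in serum. In Dgcr8KO bulk RNA both were called lower relative to the median gene, as were 51 of the 76 members (background 36.5%). The changes were -2.11 (SE 0.18, adjusted p = 7.19e-05, limma) for Mrps11 and -1.55 (SE 0.14, adjusted p = 0.000121, limma) for Mrpl46. As deposited Mrps11 was still called lower and Mrpl46 was not. In 2i they were at 0.21 and -0.04, neither passing. On the plates Mrps11 fell in Dgcr8KO (-0.88, SE 0.29, adjusted p = 0.0286, limma) and Mrpl46 was at -0.40 (adjusted p = 0.277, limma). Counts in overlapping windows cannot be told apart between the genes.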

How the data were processed

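Single-cell and bulk RNA-seq and ChIP-seq of mouse cells were analysed from the deposited tables. RNA values were deposited as the natural log of TPM + 1, read from the values, and TPM carry no read depth. ChIP values were deposited as raw read counts per window of 1000 bases, with totals of 900942 to 15293599 for RNAP2 and H3K4me3. Bowtie, RSEM and build mm9 are listed, without versions or roles, in the submitters' processing notes. Annotation and strand setting are not stated there, and reads of near-identical copies (processed pseudogenes) or antisense genes may be shared. Gene names damaged into calendar dates were dropped (51 in the mESC cell table, 25 in the ChIP table), and 6 or 7 members stand under another name with identical values, which was not counted.

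The unit was the library in bulk RNA and the plate in single cells (mean TPM over its cells). Values were converted to log2(TPM + 1), and each library or plate was centred on the median of its tested genes (filter: mean TPM 1). Folds on this scale understate the change of low genes. limma 3.58.1 with trend (R 4.3.3) was fitted to 5 bulk libraries or 4 plates with Benjamini-Hochberg adjustment over all tested genes and a threshold of 0.05; the single 2i library and plates are assumed to vary like the others, and residual degrees of freedom were 2 in bulk and 1 on the plates. Spread and rank correlations per plate used Python 3.11.15, numpy 2.4.6, pandas 2.3.3 and scipy 1.17.1, with figures by matplotlib 3.10.9. ChIP ratios used windows with a summed count of at least 20 and 0.5 added, relative to the median window; 95% Poisson intervals cover counting error only. The RNA fits were tested on simulated data.

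Members and lists were chosen with earlier results of these data known. Members named are, for each bulk comparison, the 5 largest called rises and falls, the 5 highest and 5 lowest in serum, the 3 largest and 3 smallest excess SDs, the extremes of H3K4me3 and 8 members chosen by role. Other members named (among them Mrpl9, Mrpl43, Mrpl19, Mrps7, Mrps11 and Mrpl46) were chosen after their values were seen. Alternatives covered scaling, pseudocount, filters, duplicate names and leaving out libraries. Same-numbered bulk libraries did not deviate together (correlation -0.03), so no pairing was used.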

Additional observations from a re-analysis of the deposited data

How the results depend on the processing

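The counts of called members moved most with scaling; the cause was not tested beyond the shift of the median gene. In Dgcr8KO bulk RNA the rises numbered 29 as deposited, 18 after quantile normalisation, 17 with no filter and 21 centred on genes of at least 20 TPM, and the falls 21 as deposited. In 2i bulk RNA the falls numbered 1 as deposited and 2 after quantile normalisation, with a filter at 5 TPM, or centred on genes of at least 20 TPM. On the plates the 2i rises numbered 28 as deposited, 0 after quantile normalisation, 8 centred on genes of at least 20 TPM and 6 with the mean of log2 over cells, and the 2i falls 0 as deposited and 0 after quantile normalisation. The Dgcr8KO plate rises numbered 21 as deposited, 5 after quantile normalisation, 1 with a filter at 5 TPM, 11 centred on genes of at least 20 TPM and 3 with the mean of log2 over cells, and the falls 1, 3, 14 and 12 in the first 4 of these settings.

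Median changes followed. In 2i bulk RNA the median was 0.43 as deposited, 0.27 quantile normalised, 0.13 with pseudocount 0.1, 0.30 with a filter at 5 TPM, 0.35 centred on genes of at least 20 TPM and 0.26 against genes of like level, and 0.10 to 0.23 with 1 library left out. In Dgcr8KO bulk RNA it turned to 0.18 as deposited, and was -0.44 quantile normalised, -1.12 with pseudocount 0.1, -0.62 with no filter, -0.73 with a filter at 5 TPM, -0.24 centred on genes of at least 20 TPM and -0.38 against genes of like level, and -0.99 to -0.95 with 1 library left out. On the 2i plate it was 1.35 as deposited, 0.37 quantile normalised, -0.16 with pseudocount 0.1, 0.088 with a filter at 5 TPM, 0.23 centred on genes of at least 20 TPM, 0.11 with the mean of log2 over cells and 0.19 against genes of like level, and -0.043 to 0.028 without 1 serum plate. On the Dgcr8KO plate it turned to 0.96 as deposited and 0.062 quantile normalised, and was -0.79 with pseudocount 0.1, -0.37 with a filter at 5 TPM, -0.043 centred on genes of at least 20 TPM, -0.32 with the mean of log2 over cells and -0.039 against genes of like level, and -0.58 to -0.48 without 1 serum plate. The large minus small subunit difference in Dgcr8KO kept its sign against genes of like level, at -0.39 in bulk and -0.39 on the plates. Of single members Mrps18a turned round in Dgcr8KO bulk RNA, to 0.54 as deposited.

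The excess SD over detected cells was 0.068 in NPCs, 0.039 in 2i, 0.027 in Dgcr8KO and -0.011 on the first serum plate, and 0.479 in NPCs with a running median of 51 genes. Co-variation in NPCs was 0.125 with genes detected taken out. ChIP medians over serum also moved. Over whole cell extract as well, H3K4me3 was 0.079 in 2i and -0.47 in Dgcr8KO, H3K27ac -0.0027 in Dgcr8KO, H3K36me3 0.095 in 2i and H3K9me3 0.17 in Dgcr8KO. With a summed count of at least 50, H3K4me3 was 0.0064 in 2i and -0.19 in Dgcr8KO, H3K27ac 0.0088 in 2i and 0.020 in Dgcr8KO, RNAP2 0.026 in 2i and -0.12 in Dgcr8KO, and H3K36me3 0.37 in Dgcr8KO.

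With the replicate block in Dgcr8KO bulk RNA 10 members rose and 51 fell, against 9 and 51 without it, but the libraries share only a number, so no pairing was shown. Without a serum plate no residual degrees of freedom remain, so single members have values and no test there. TPM give no depth, 2i has 1 bulk library and each plate was treated as 1 preparation, which limits all tests to these libraries.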
